A study of Homo sapiens with 2 samples.

Results

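The DDX and DHX genes encode RNA helicases of the DEAD-box and DEAH-box families, enzymes that use ATP to unwind RNA duplexes or to strip proteins from RNA. Members were taken by name: every single gene symbol in the platform's annotation made of DDX or DHX, a number and at most 1 letter, without pseudogenes, antisense genes and DDX3Y. This gave 50 genes of 19775, read by 117 of the 54675 probe sets on each array. The genes were chosen by name, but the family was selected on the Glivec over untreated ratios of these same 2 arrays, so its counts describe the arrays and are no independent evidence of a direction.

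The cells were EOL-1, spelled Eol1 in the labels, an established human line from an eosinophilic leukaemia with the fusion kinase FIP1L1-PDGFRA. One culture was kept for 4 h with 100 nM Glivec (imatinib, which blocks this fusion as well as the kinases ABL and KIT), and the control culture was left untreated. Both were washed once with PBS before total RNA was extracted and hybridised to Affymetrix arrays, 1 per culture. Because each condition has a single array, ratios could not be set against replicate error, nothing was tested between conditions, and precision is limited by the number of arrays.

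Helicases of these families act at nearly every step in the life of an RNA. In the nucleolus they remodel the precursors of both ribosomal subunits, in the spliceosome they drive the rearrangements between its assembly stages, and in the cytoplasm they act in translation initiation, storage and decay of mRNA. Relatives of the same families sense viral RNA or work in mitochondria and germ cells. In leukaemia the family is known for DDX41, which is mutated in inherited and acquired myeloid neoplasms.

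Signals are given in the deposited linear MAS5 units, and ratios are Glivec over untreated. A signal counted as measured above a floor of 13.7, the median of all non-control signals. Each gene was read from its brightest probe set over both arrays, with _x_at probe sets (cross-hybridising by suffix) used only where no other existed. Of the 50 members 46 were measured, and all 46 were above the floor on both arrays, so that none of their ratios is a bound. The 4 others, DDX4, DDX25, DDX53 and DHX58, were below it on both arrays. Error could be gauged only from different probe sets of the same gene: their log2 ratios had a pooled SD of 0.41 over the 31 members with several above the floor, and of 0.33 over 5603 genes. This spread leaves out all variation between cultures. All such probe sets had the same sign in 21 of the 31 members, and the same share over all genes is not given here.

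Of the 46 measured members, 8 (17.4%) were at least 1.5-fold lower on the Glivec array, against 8.33% of all 12705 measured genes. Only DDX19B among them was at least 1.5-fold higher (2.17%), against 13.5% of all measured genes. At least 2-fold lower were 3 members (6.52%), DDX5, DHX33 and DDX55, against 2.63% of all measured genes, and no member was 2-fold higher, against 3.13%. The ratio was below 1 in 29 of 46 members, against 41% of all measured genes. In bulk RNA, fewer cells with a transcript and less of it per cell cannot be told apart. The median log2 ratio was -0.18 over the members and 0.10 over all measured genes, a distance of -0.28.

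Hybridisation spike-ins, control transcripts that the usual protocol adds equally to all samples, were read by 18 probe sets whose log2 ratios ran from 0.42 to 0.89 with a median of 0.74. Scaling to them lowered every ratio alike, put the members' median at -0.92 and that of all measured genes at -0.64, and left the distance between them at -0.28. With this scaling 45 of 46 members had a ratio below 1, DDX19B being the exception, against 91.9% of all measured genes, so that each direction given here is relative to the bulk of genes. As deposited, the ratio was below 1 in 63.0% of measured members and 41% of all measured genes. The shares were 67.4% and 45.8% after quantile normalization, 69.6% and 49.3% after a loess trend, and 78.3% and 50% after median centring. Both were higher than as deposited under each of these scalings, though not by equal amounts.

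**Figure D1:**
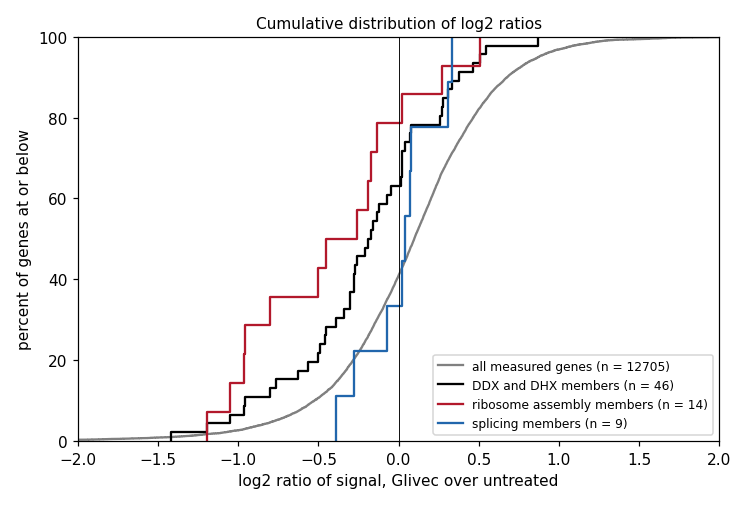
Cumulative percent of genes (vertical axis) at or below each log2 ratio of signal, Glivec over untreated (horizontal axis, cut at -2 and 2), for all 12705 measured genes, the 46 measured members, the 14 members of ribosome assembly and the 9 of splicing. The members' curve lies left of that of all genes, with medians of -0.18 and 0.10, and the ribosome assembly curve lies further left, with a median of -0.36.

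The EOL-1 label was checked against eosinophil markers. The granule protein genes PRG2 and RNASE2 were bright, with signals of 6302 and 2872 with Glivec and 4744 and 2146 without. CLC and EPX were above the floor on 1 array each, IL5RA and SIGLEC8 were below it on both, and CCR3 and RNASE3 had no probe set of 1 symbol. Of the marker genes of other blood cells with such a probe set, 7 of 11 had a signal above the floor. These were NKG7, IL7R and CD3E of T and NK cells, CD79A of B cells, HBB of red cells, and CD14 and MS4A7 of monocytes. Of all 19775 genes 12705 were above it, a share close to 7 of 11. By the probe set read, CD3E and HBB were above it on 1 array only, though 2 other HBB probe sets were above it on both. The part of such cells in the helicase ratios was not tested.

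The members furthest below 1-fold that have an entry in the RefSeq promoter table (GRCh38.p14) were DDX5, DDX55 and DDX21. The 250 bases before their first annotated start are printed 5′ to 3′ in the direction of the gene, because these are the genes whose ratios stand out. Capitals mark CACGTG, the E-box that the transcription factor MYC binds with its partner MAX; it reads alike on both strands. The DDX5 stretch is chr17:64506639-64506888 on the minus strand, the DDX55 stretch chr12:123601849-123602098 on the plus strand and the DDX21 stretch chr10:68955920-68956169 on the plus strand. The short DDX21 line, chr10:68956604-68956633, holds the E-box before its second annotated start.
DDX5: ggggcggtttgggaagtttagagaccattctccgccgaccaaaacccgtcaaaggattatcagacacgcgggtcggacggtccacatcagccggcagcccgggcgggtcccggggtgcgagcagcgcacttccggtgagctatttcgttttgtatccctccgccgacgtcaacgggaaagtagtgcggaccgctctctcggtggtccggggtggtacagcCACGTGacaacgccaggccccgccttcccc
DDX55: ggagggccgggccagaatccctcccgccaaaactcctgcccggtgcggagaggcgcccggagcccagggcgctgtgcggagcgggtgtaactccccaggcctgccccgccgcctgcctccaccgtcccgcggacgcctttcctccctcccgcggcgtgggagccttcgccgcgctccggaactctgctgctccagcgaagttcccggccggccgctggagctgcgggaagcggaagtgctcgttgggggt
DDX21: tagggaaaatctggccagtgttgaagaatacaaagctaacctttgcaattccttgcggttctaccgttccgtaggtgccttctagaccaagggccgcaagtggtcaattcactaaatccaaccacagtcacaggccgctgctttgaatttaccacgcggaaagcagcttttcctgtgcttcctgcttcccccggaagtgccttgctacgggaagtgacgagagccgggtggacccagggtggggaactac
DDX21, second start: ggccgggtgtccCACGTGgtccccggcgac

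The DDX5 E-box begins 30 bases before the start and that of DDX21 31 bases before its second start. The DDX55 stretch and the first DDX21 stretch hold none. In windows from 250 bases before to 50 after each annotated start, 10 of the 46 members in the table held at least 1 E-box (21.7%). These 46 are not the 46 measured members, since they include DDX4, DDX25 and DDX53 and lack DDX49, DDX52 and DHX33. The 10 were DDX5, DDX21, DDX25, DDX31, DDX54, DHX32, DHX34, DHX35, DHX37 and DHX40. The share was 12.5% of 10236 measured genes in the table and 8.77% of all 27305 genes in it. Counted by window, it was 10 of 61 member windows (16.4%) and 7.26% of all 35116. Of the 7 members at least 1.5-fold lower that have an entry, DDX5, DDX21 and DDX31 held one. So did DDX54, DHX35 and DHX40, whose ratios were above 1. A match describes these letters and is neither a binding site nor a cause.

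Members of ribosome assembly held 5 of the 8 genes at least 1.5-fold lower, 35.7% of the group against 8.33% of all measured genes. Of 14 members, all measured, 11 (78.6%) had a ratio below 1, against 41% of all measured genes. The median log2 ratio was -0.36 against 0.10 over all measured genes. Among the 32 measured members outside this group, 3 (9.38%) were at least 1.5-fold lower, near the 8.33% of all measured genes. The ratio was below 1 in 18 of these 32 (56.25%), and their median was -0.10. Genes of ribosome assembly were already known to be low on these arrays when the groups were drawn. The group was meant to hold DDX18 and DDX47 too, which have no probe set of 1 symbol.

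DHX33, a nucleolar helicase that takes part in ribosomal RNA synthesis, had signals of 326 with Glivec and 747 without, 2.29-fold lower with a log2 ratio of -1.20. Its other probe set was lower too, at -0.61. DDX55, which acts in large subunit assembly, had signals of 115 and 239, 2.07-fold lower at -1.05, and rests on 1 probe set.

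DDX21, an abundant nucleolar helicase of ribosomal RNA transcription and processing, had signals of 1442 with Glivec and 2810 without. It was 1.95-fold lower at -0.96, and its second probe set, at signals of 544 and 1449, was lower by more, at -1.41. Both probe sets of DDX21 thus had the lower signal on the Glivec array. Its close paralog DDX50 had 640 and 720, a log2 ratio of -0.17, although a dim DDX50 probe set (19.8 and 42.3) was at -1.09. As paralogs with similar sequence the pair may share hybridisation.

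DDX10, a helicase of small subunit processing, had signals of 198 with Glivec and 345 without, 1.74-fold lower at -0.80, with no other probe set above the floor. DDX31, a nucleolar helicase of large subunit assembly, was dim at 34.2 and 66.6, 1.95-fold lower at -0.96. Its probe sets did not go one way: another was lower, 14.7 with Glivec against 60.1 without, at -2.03, and the last was higher, 29.6 against 17.5, at 0.76. The DDX31 ratio therefore depends on the probe set, and none of its signals exceeded 66.6.

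The other 9 members of ribosome assembly were within 1.5-fold, with log2 ratios from -0.50 to 0.51 and a median of -0.17. DDX24, a nucleolar helicase, had signals of 443 with Glivec and 629 without, a log2 ratio of -0.50, and -0.34 by its other probe set. DDX56, of large subunit assembly, had 198 and 272 (-0.46). DDX52, of the small subunit, had 104 and 125 (-0.26), with other probe sets from -0.13 to 0.22. These 3 were lower by less than the threshold.

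DDX51, a helicase of large subunit maturation, had signals of 80.6 with Glivec and 92.1 without, at -0.19, whereas a second probe set was higher with Glivec, 73.2 against 39.9, at 0.88. Its direction is therefore not settled by these arrays, and the mean over its probe sets was positive, at 0.34. DHX37, of small subunit maturation, was likewise at -0.13 by one probe set and 0.25 by the other. DDX27, of large subunit assembly, was at 0.02 from signals of 188 and 185. Its brighter _x_at probe set, at 435 and 579, had the other sign, at -0.41.

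Above 1-fold in the deposited scaling were DDX49, which acts in ribosomal RNA processing, with signals of 446 and 370 (0.27), and DDX54, a large subunit helicase and transcription coregulator, with 141 and 99.0 (0.51). Other DDX54 probe sets were at -0.05 and 0.13, and both genes turned below 1-fold with spike-in scaling. The group's distance from the median of all genes was -0.45 as deposited, -0.43 with quantile normalization, -0.44 after loess and -0.72 with only _at probe sets, those whose name carries no suffix for shared or cross-hybridising sequence. It was -0.31 with the floor at the 75th percentile. These settings do not hold the same members. With only _at probe sets DDX24, DDX27, DDX50 and DDX54, all within 1.5-fold as deposited, had no value. With the floor at the 75th percentile DDX31 had none.

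**Figure D2:**
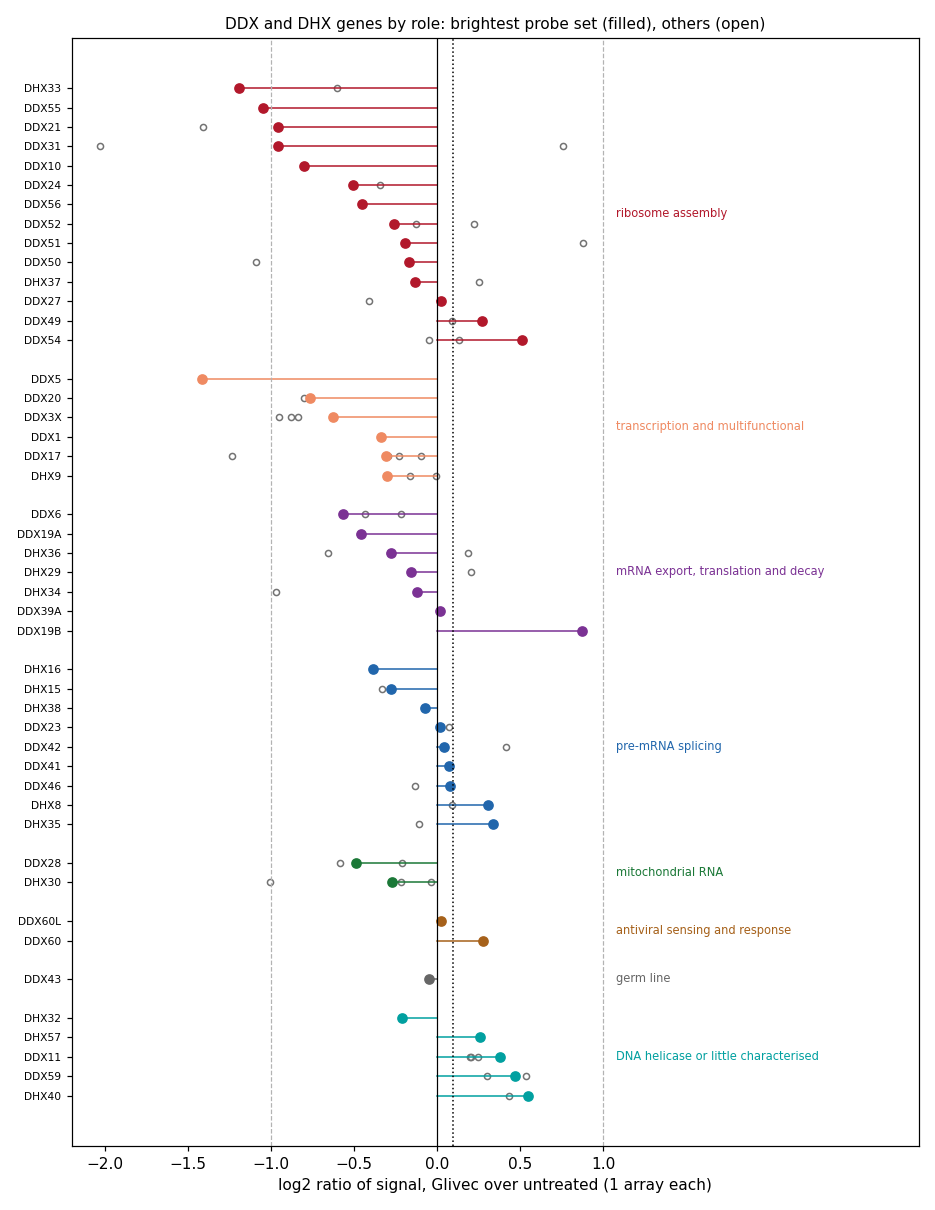
Log2 ratio of signal, Glivec over untreated (horizontal axis), for each of the 46 measured members (vertical axis), in 8 role groups by colour. Filled points are the probe set each gene was read from, and open points other probe sets above the floor on both arrays. Dashed lines mark 2-fold and the dotted line the median of all measured genes, 0.10. DDX5, DHX33 and DDX55 lie past the 2-fold line and DDX19B is the highest, at 0.87. Several members have open points across 0 from their filled points, and in DDX31 and DDX51 these lie more than 1 away.

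All 6 members grouped as transcription and multifunctional helicases had a ratio below 1, against 41% of all measured genes, with a median of -0.49. At least 1.5-fold lower were 3 of them (50%), against 8.33% of all measured genes. DDX5, a transcription coregulator that also takes part in splicing, had the lowest ratio of all members: signals of 94.4 with Glivec and 252 without, 2.68-fold lower at -1.42. It lay at percentile 0.96 of all measured genes. The value rests on 1 probe set; another probe set, listed jointly for DDX5 and 2 microRNA genes, was not used.

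Its paralog DDX17 had signals of 1465 and 1811 by its brightest probe set, a log2 ratio of -0.31. All 5 DDX17 probe sets were lower, the others from -1.24 to -0.10, the lowest of them at signals of 21.4 and 50.5. The log2 ratio of DDX5 minus that of DDX17 was -1.11, and both genes were lower with Glivec.

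DDX20 encodes Gemin3, a part of the SMN complex that assembles spliceosomal small nuclear ribonucleoproteins. Its signals were 326 with Glivec and 553 without, 1.70-fold lower at -0.76, and its second probe set gave -0.80. DDX3X, a helicase of translation initiation and innate signalling, had 1415 and 2189, 1.55-fold lower at -0.63. Its 3 other probe sets above the floor were at -0.95 to -0.84, so that all 4 were lower and the brightest was the least so.

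The remaining members of this group were closer to 1-fold. DDX1, which takes part in tRNA splicing, had signals of 1116 with Glivec and 1413 without (-0.34). DHX9, also known as RNA helicase A, had 685 and 846 (-0.30), with other probe sets at -0.16 and -0.01.

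Among 7 members of mRNA export, translation and decay, 5 (71.4%) had a ratio below 1, against 41% of all measured genes. The group's median was -0.16, or 0.01 with only _at probe sets. In that setting DDX19A, DDX39A and DHX34 had no value, and DHX36 was read from a dim probe set at 0.19. DDX6, which represses translation and promotes decapping, had signals of 350 with Glivec and 518 without, 1.48-fold lower at -0.57, with its other probe sets at -0.44 and -0.22. DHX36, which unwinds G-quadruplexes, had 586 and 712 (-0.28), with others from -0.66 to 0.19. DHX29, a translation initiation helicase, was at -0.16 and 0.20 by 2 probe sets, and DHX34, of nonsense-mediated decay, at -0.12 and -0.97. DDX39A, an export helicase and 1 of the 3 brightest members, had 2784 and 2752, a log2 ratio of 0.02 that turned below 0 under all 4 other scalings.

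DDX19A and DDX19B are near-identical paralogs that act in mRNA export at the nuclear pore. DDX19A had signals of 204 with Glivec and 280 without, a log2 ratio of -0.46, and -0.47 by a second probe set. DDX19B was higher with Glivec, 61.6 against 33.7, 1.83-fold at 0.87, on 1 dim probe set. The pair thus lay on either side of 1-fold, with a log2 ratio of DDX19A minus DDX19B of -1.33; a probe set listed for both genes was not used, and shared hybridisation was not tested. With spike-in scaling DDX19B was at 0.13.

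**Figure D3:**
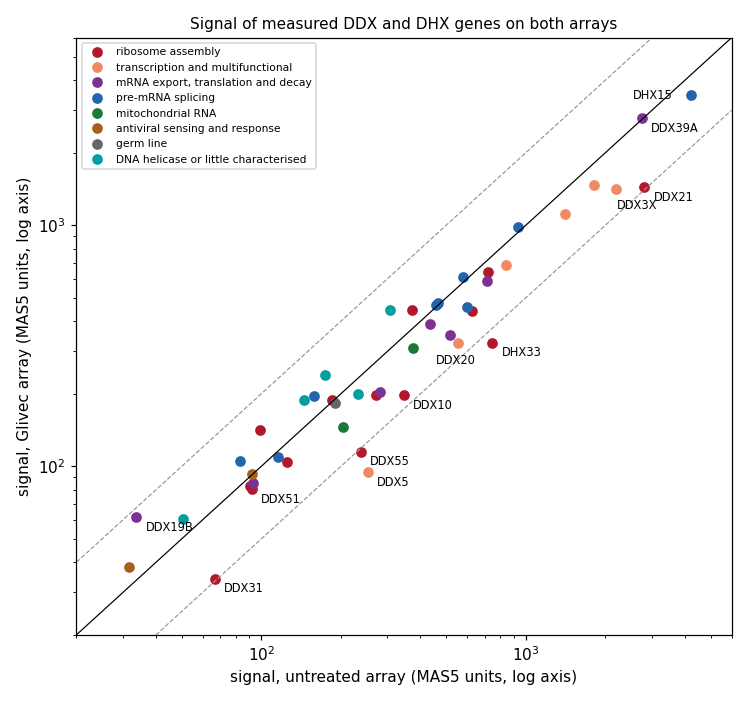
Signal of each measured member on the untreated array (horizontal axis) and on the Glivec array (vertical axis), both in MAS5 units on log axes, coloured by role; the solid line marks equal signal and the dashed lines 2-fold. DHX15, at 3488 and 4230, is the brightest, DDX5, DHX33 and DDX55 lie below the lower dashed line, and DDX19B lies above the solid line at 61.6 and 33.7.

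Members grouped under splicing lay near the bulk of genes, with DDX5 and DDX20, which also have a part in splicing or its machinery, grouped elsewhere. Of 9 members, none was 1.5-fold different, where 8.33% of all measured genes were lower and 13.5% higher by that much. The ratio was below 1 in 3 (33.3%), against 41% of all measured genes. The median was 0.04, or -0.06 after median centring and -0.70 with spike-in scaling. DHX15, which releases the excised intron lariat and was the brightest member, had signals of 3488 with Glivec and 4230 without (-0.28), and -0.33 by a second probe set. DHX16, which acts before the first splicing step, had 458 and 600 (-0.39), and DHX38, which acts between the steps, 110 and 116 (-0.07).

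Higher with Glivec by small amounts in the deposited scaling were DHX8, which releases spliced mRNA, at 197 and 159 (0.31), and DHX35, of the catalytic spliceosome, at 105 and 83.2 (0.34). A second DHX35 probe set was at -0.11, and both genes were below 1-fold with spike-in scaling. DDX23, which exchanges U1 for U6 at the 5′ splice site, was at 0.02, DDX42 and DDX46, which work with the branch-site machinery, at 0.04 and 0.07, and DDX41 at 0.07 from signals of 611 and 581. All 4 turned below 0 after median centring and with spike-in scaling. A second DDX46 probe set was at -0.14. DDX39B, an export and splicing helicase, has no probe set of 1 symbol.

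The mitochondrial helicases DDX28 and DHX30, both of which take part in mitochondrial ribosome assembly, had signals of 145 and 204 (-0.49) and of 310 and 375 (-0.27) with and without Glivec. All 3 DDX28 and all 4 DHX30 probe sets above the floor on both arrays were lower, from -0.58 to -0.21 and from -1.01 to -0.04. Antiviral relatives were dim: DDX60 had 38.3 and 31.6 (0.28), and DDX60L 93.4 and 92.0 (0.02), both below 1-fold with spike-in scaling and DDX60L also under the 3 other scalings. DDX60L was at 0.88 by another probe set, from signals of 25.1 and 13.6 with the untreated one at the floor, and DHX58 was at 4.14 and 1.98, below it. Of the germ line helicases DDX43 alone was above the floor, at 183 and 190 (-0.05).

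The last 5 members had the highest median, 0.38, which was 0.36 after quantile normalization but -0.36 when scaled to the spike-ins. DHX40, little characterised, had signals of 447 with Glivec and 306 without (0.54), and 0.43 by a second probe set. DDX59 had 240 and 174 (0.47), with others at 0.30 and 0.54. DDX11, a DNA helicase of sister chromatid cohesion with near-identical copies in the genome, was at 0.38 by its brightest probe set without a cross-hybridisation suffix and from 0.20 to 0.25 by others. DHX57 was at 0.26 and DHX32 at -0.21. All 9 probe sets of DHX40, DDX59 and DDX11 were higher with Glivec as deposited, and their 3 gene ratios were below 1-fold with spike-in scaling.

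**Figure D4:**
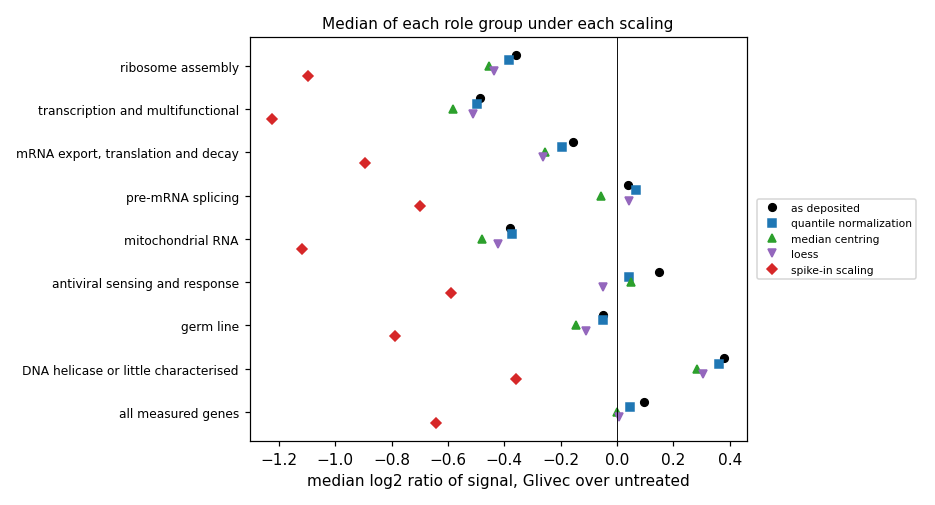
Median log2 ratio of signal, Glivec over untreated (horizontal axis), of each role group and of all measured genes (vertical axis), as deposited and under 4 other scalings by symbol. Ribosome assembly and the transcription group lie left of all measured genes under each scaling shown, at -0.36 and -0.49 as deposited, and spike-in scaling moves every median left, to -0.64 for all measured genes.

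RNA helicases with other names had a median near that of all genes. Of 17 listed genes 13 were measured, with a median log2 ratio of 0.14. At least 1.5-fold lower were 2 (15.4%) and higher 3 (23.1%), against 8.33% and 13.5% of all measured genes. EIF4A3, the helicase of the exon junction complex, had signals of 1279 with Glivec and 2066 without, 1.62-fold lower, and the mitochondrial helicase SUPV3L1 101 and 183, 1.80-fold lower. MOV10, which acts against retroelements, was 1.91-fold higher at 113 and 59.0, the decay helicase SKIC2 1.54-fold and the viral RNA sensor RIGI 1.54-fold. SKIC2 and RIGI were below 1-fold with spike-in scaling, at -0.11 and -0.12.

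Proteins that bind or work with helicases formed the second list, with 18 of 19 genes measured and a median of -0.19. The ratio was below 1 in 13 of them (72.2%), against 41% of all measured genes. At least 1.5-fold lower were 3 of them (16.7%) and higher 1 (5.56%), where 8.33% and 13.5% of all measured genes were. GPATCH4, a nucleolar G-patch partner of DHX15, had signals of 129 with Glivec and 341 without, 2.65-fold lower, with a second probe set at -1.61. UTP14A, the partner of DHX37 in the small subunit precursor, had 251 and 422, 1.68-fold lower, with another at -1.07. PINX1, a G-patch protein, had 77.5 and 125, 1.61-fold lower. CMTR1, an mRNA cap methyltransferase that binds DHX15, was 1.63-fold higher at 364 and 224, but at -0.04 with spike-in scaling.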

How the data were processed

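Total RNA of 1 Glivec-treated and 1 untreated EOL-1 culture was measured on 1 array each. The authors deposited a linear signal intensity for each probe set, computed with MAS5 (version not given in the sources used here) per the submitters' processing notes. The mean signal without the lowest and highest 2% was 100.014 on both arrays, so they had been scaled alike before deposit.

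Probe sets were named from the platform annotation table (41097 with 1 symbol, 1801 with several, 11777 with none listed). The 7 probe sets with several symbols that include a DDX or DHX gene were not used. Entrez identifiers matched all 50 members to the RefSeq table, which changed 0 symbols. Signals under 13.7 were raised to this floor, which was chosen rather than measured as a background, before log2 was taken. A gene was read from its probe set of highest mean signal (_x_at only where no other), and counted as measured if either array exceeded the floor: 12705 of 19775 genes. Genes named in full were those at least 1.5-fold different, the 3 brightest, and those whose probe sets differ in sign and by over 1 in log2 ratio; list genes were named at 1.5-fold. Roles come from textbook knowledge, and no other assignment of members with several roles was tried. Members, roles, lists and alternatives were chosen with earlier results of these data known.

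Alternatives were quantile normalization, median centring, loess (span 0.3), spike-in scaling, the floor at the 40th, 60th or 75th percentile, a pseudocount of 0.646 without a floor, the mean over probe sets, and only _at probe sets. The calculation was tested on simulated data. Python 3.11.15, numpy 2.4.6, pandas 2.3.3, statsmodels 0.14.6 and matplotlib 3.10.9 were used.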

Additional observations from a re-analysis of the deposited data

How the results depend on the processing

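No paired analysis was possible because there is a single array of each kind, which also means that no replicate could be left out. The 9 members at least 1.5-fold different kept their direction under every alternative that gave them a value. They stayed past 1.5-fold too, except DDX19B with spike-in scaling. The floor at the 75th percentile left 7 of them with a value. Part of this was fixed in advance. All 9 were above the main floor on both arrays, and moving the floor changed none of the ratios they kept. Median centring and spike-in scaling each lower all ratios by 1 number, so only DDX19B could have turned. The mean over probe sets could not change DDX5, DDX10, DDX19B and DDX55, each with 1 probe set above the floor. No setting read DDX31 from its higher probe set alone, at 0.76. Medians that shifted by over 0.33, the SD between single probe sets, are given here. Unless the setting itself shows the cause, the cause was not tested. This bar is wider than the members' whole distance from all measured genes, -0.28, so it could not have flagged the loss of that distance. The distance ran from -0.30 with the floor at the 40th percentile to -0.24 with the floor at the 75th percentile. Spike-in scaling subtracts 1 number from all ratios. It gave 20 members at least 2-fold lower (21.2% of all measured genes were), 36 at least 1.5-fold lower (55.3%), 0 at least 1.5-fold higher (0.866%) and 45 with a ratio below 1 (91.9%). It put the members' median at -0.92 and the role medians at -1.10 (ribosome assembly), -1.22 (transcription and multifunctional), -0.90 (export, translation and decay), -0.70 (splicing), -1.12 (mitochondrial), -0.59 (antiviral), -0.79 (germ line) and -0.36 (the last group). Quantile normalization, median centring and loess each gave 5 members at least 2-fold lower, against 3 as deposited; of all measured genes 3.14%, 3.53% and 3.74% were, against 2.63%. Members at least 1.5-fold higher numbered 0 with the floor at the 75th percentile (7.74% of all measured genes), 2 with the pseudocount (23.2%) and 2 with only _at probe sets (13.8%), where the antiviral median rested on DDX60L, at 0.88. Dim signals limit what can be seen, since 4 members never passed the floor.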
